A study of Mus musculus with 6 samples.

Results

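The genes described here carry glucose into the cell, break it down to pyruvate and lactate, and feed the pathways that branch from glycolysis. The list holds 38 genes. The array names 22180 genes by at least 1 probe set of their own. A probe set is the group of array probes summarised to a single value. Each of the 38 was chosen for its place in the pathway, with earlier results of these data known. Each was measured by whichever probe set naming no other gene had the highest mean over the 6 arrays. Of the 38, 32 were measured. Gpi1, Eno1, G6pdx and Akr1b3 had no name in the annotation used here, and Aldoa and Tkt were named only on probe sets shared with another gene, so these 6 were not analysed here. Slc2a4, Pfkm, Pfkfb4 and Eno2 had means under the limit for dim genes, a log2 value of 5.07, which left 28 tested genes.

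Each sample held 5000 endothelial cells sorted from mouse bone marrow, and all mice were male and of strain C57BL/6J. Cells of mice made diabetic by feeding high fat food gave 3 arrays, and cells of nondiabetic control mice gave another 3. The labels of all 6 samples carry a single diet text, 60 kcal% fat for 4 months, so what the nondiabetic mice ate is not settled by them, and they give no age. Nor do they state that each array stands for its own mouse, so the spread that the p-values rest on could be technical. Values are log2 expression as deposited, and the array medians lay between 5.21 and 5.28.

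Glucose enters cells through transporters of the Slc2a family and is trapped by hexokinases, committed to glycolysis by phosphofructokinase, split into trioses and oxidised to pyruvate. Pyruvate becomes lactate, which leaves through monocarboxylate transporters, or enters mitochondria through the pyruvate dehydrogenase complex. Endothelial cells are known to draw much of their energy from glycolysis. The pentose phosphate, hexosamine, polyol and methylglyoxal pathways branch from glycolysis and are much studied in vessels exposed to high glucose.

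Markers of endothelium were present on every array. All 15 listed endothelial genes were above the limit for dim genes. Their mean was 8.84 to 9.55 on diabetic arrays and 8.96 to 9.37 on nondiabetic arrays, with Cdh5, the junction cadherin of endothelium, averaging 10.88 and 10.98, and Emcn, a sialomucin of venous and capillary endothelium, averaging 10.57 and 10.75. Diabetic replicate 1 stood above the other 5 arrays in the mean of these markers, though not in every single marker. RNA of blood cells was present too. The 12 measured monocyte and macrophage genes averaged 6.99 to 7.12 on diabetic arrays and 6.54 to 6.88 on nondiabetic arrays, and the log2 of the list's summed level was 11.76 to 12.08 and 11.24 to 11.86. The 14 neutrophil genes averaged 6.37 to 6.42 on diabetic arrays and 6.11 to 6.35 on nondiabetic arrays, with summed levels of 11.81 to 12.18 and 11.74 to 11.80. For both lists all diabetic arrays had the higher means. Ly6c2 and Lyz2 led the monocyte list, at 11.09 and 8.37 in diabetic and 10.76 and 7.94 in nondiabetic cells. Mpo and Ctsg led the neutrophil list, at 10.71 and 10.34 in diabetic and 10.45 and 10.21 in nondiabetic cells, and the groups overlapped for both. Of the 14 neutrophil genes, 9 had means above the limit for dim genes. Not all of the 14 lay higher, since Cebpe and the dim genes Ltf, Camp, Fcnb and Mmp8 had lower means in diabetic cells. The erythroid and the megakaryocyte and platelet lists overlapped between groups, with means of 6.55 to 6.91 and 8.36 to 9.31 on diabetic arrays and 6.65 to 6.99 and 8.07 to 9.13 on nondiabetic arrays. Their leading genes were Car1 and Car2, and Ppbp and Pf4. The part of these cells in the results on glucose genes was not tested, and in a sorted bulk sample fewer cells of a type and less RNA per cell cannot be told apart.

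**Figure D1:**
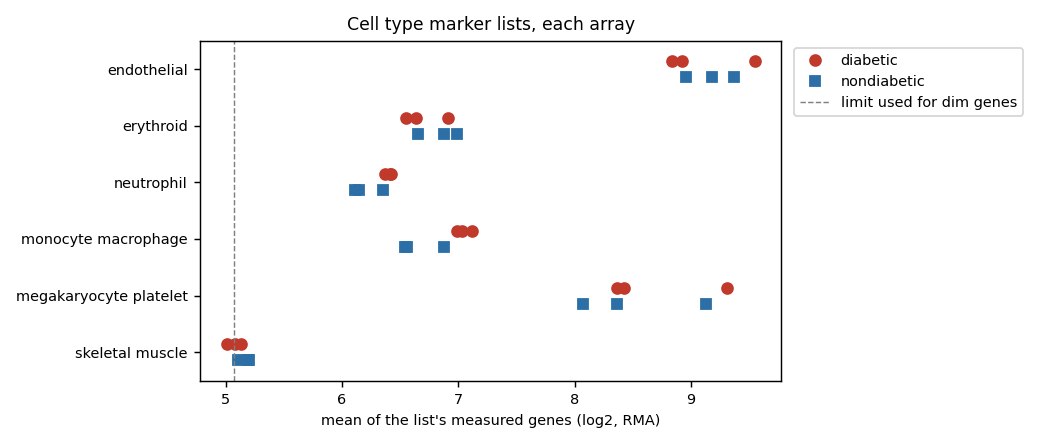
Mean log2 level of each cell type marker list on each array, with diabetic arrays as red circles and nondiabetic arrays as blue squares; the dashed line is the limit for dim genes, 5.07. The monocyte and neutrophil lists lay higher on all diabetic arrays, and the skeletal muscle list lay at the limit in both groups.

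No gene of the glucose pathway passed the test for a difference between diabetic and nondiabetic cells. After limma and adjustment over all 13308 tested genes, 0 of 28 had an adjusted p under 0.05, the background being 0.00751% of all tested genes (1 gene), and every one of the 28 had an adjusted p = 0.997. At an unadjusted p under 0.05, 2 of the 28 lay higher in diabetic cells, Pgam2 and Ldhb, which is 7.14% where the background over all tested genes is 3.19%, and 0 lay lower, where it is 1.07%. In 4 genes the lowest diabetic array was above the highest nondiabetic array, Pfkp, Tpi1, Pgam2 and Ldhb, 14.3% of the 28 against a background of 5.28%. The reverse order held for 0 genes, against a background of 2.67%. The mean was higher in diabetic cells for 21 of the 28 genes and lower for 7, so 75.0% lay higher, where 54.0% of all tested genes did. The median difference, diabetic minus nondiabetic on the log2 scale, was 0.13 over the 28 genes and 0.02 over all tested genes, and it was 0.11 over the 32 measured genes with none left out as dim. These shares carry no test and describe genes that were chosen with earlier results of these data known. Pgam2 is in them only through its diabetic level. Its nondiabetic mean of 5.04 was under the limit for dim genes. Without nondiabetic replicate 2 the median of the glucose genes was 0.06.

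**Figure D2:**
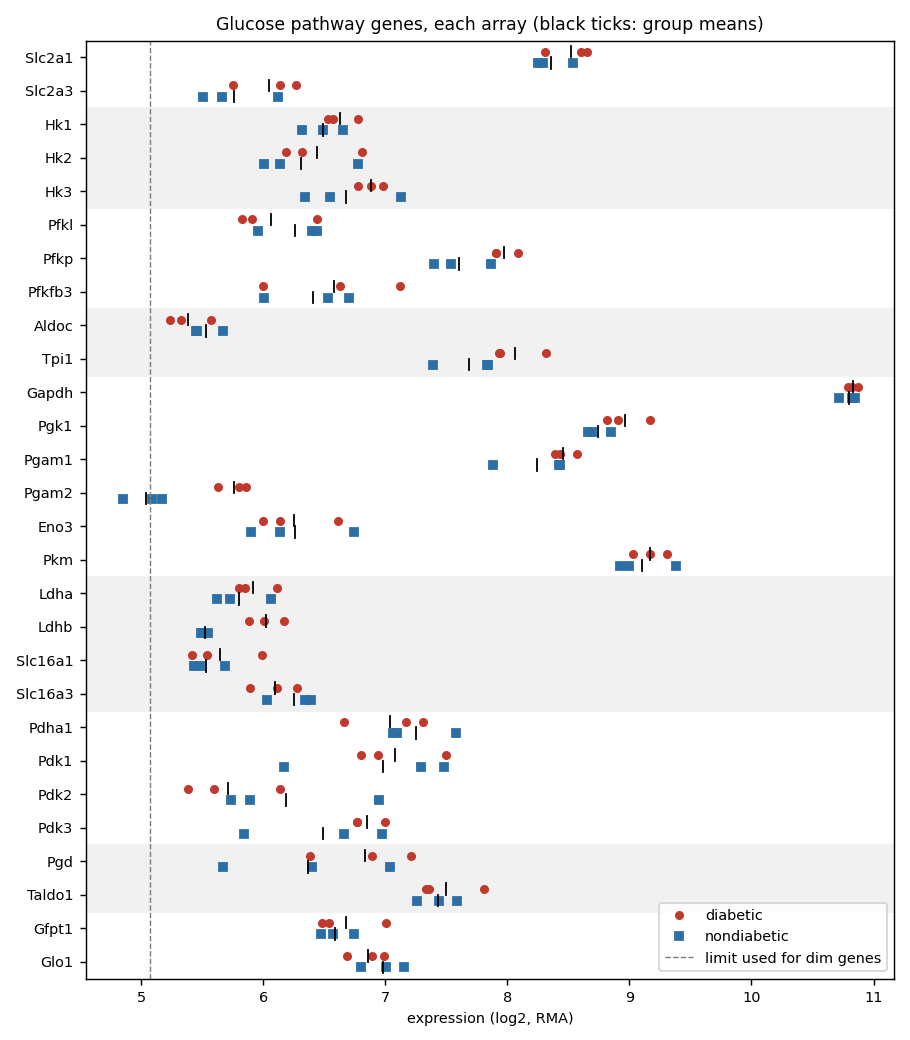
Log2 expression of the 28 tested genes on each array, in pathway order from glucose uptake at the top, with diabetic arrays as red circles above and nondiabetic arrays as blue squares; black ticks are group means and shading separates pathway steps. The groups separated for Pfkp, Tpi1, Pgam2 and Ldhb and overlapped for the other 24 genes; levels of different genes are not comparable because each comes from its own probes.

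The start regions of the 4 genes whose groups did not overlap are shown because glycolytic genes are known targets of the hypoxia-inducible factors, which bind the core ACGTG or GCGTG. Each is the 300 bases from 250 before to 50 after the RefSeq start in build GRCm38.p6, on the minus strand, for Pfkp at chr13:6648722-6649021, Tpi1 at chr6:124814109-124814408, Pgam2 at chr11:5803747-5804046 and Ldhb at chr6:142507908-142508207. Sequences run 5′ to 3′, and capitals mark that core on either strand.
Pfkp: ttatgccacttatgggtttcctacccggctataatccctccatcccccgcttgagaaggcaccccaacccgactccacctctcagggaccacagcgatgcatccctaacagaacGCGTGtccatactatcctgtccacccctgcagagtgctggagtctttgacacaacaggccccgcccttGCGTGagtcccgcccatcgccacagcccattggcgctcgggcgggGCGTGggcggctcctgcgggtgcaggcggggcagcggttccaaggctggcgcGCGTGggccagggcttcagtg
Tpi1: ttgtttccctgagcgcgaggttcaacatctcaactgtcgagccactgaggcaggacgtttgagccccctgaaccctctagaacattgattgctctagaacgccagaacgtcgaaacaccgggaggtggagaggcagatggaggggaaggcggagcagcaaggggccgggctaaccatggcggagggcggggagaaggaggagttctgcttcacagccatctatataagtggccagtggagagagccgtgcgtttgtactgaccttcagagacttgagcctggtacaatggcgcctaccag
Pgam2: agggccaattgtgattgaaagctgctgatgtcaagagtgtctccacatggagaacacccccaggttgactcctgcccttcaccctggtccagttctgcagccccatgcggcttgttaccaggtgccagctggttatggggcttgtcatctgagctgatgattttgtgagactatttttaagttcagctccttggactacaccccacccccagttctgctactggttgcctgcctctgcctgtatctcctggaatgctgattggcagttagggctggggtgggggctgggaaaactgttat
Ldhb: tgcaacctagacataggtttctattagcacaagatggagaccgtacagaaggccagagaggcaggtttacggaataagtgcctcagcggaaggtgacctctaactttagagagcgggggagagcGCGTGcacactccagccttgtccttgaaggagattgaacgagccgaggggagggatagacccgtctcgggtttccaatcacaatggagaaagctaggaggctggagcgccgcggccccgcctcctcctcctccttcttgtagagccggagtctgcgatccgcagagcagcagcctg
Pfkp held 4 matches, Ldhb 1, and Tpi1 and Pgam2 none in these windows. Of the 38 genes, 35 had at least 1 such window in the RefSeq table, 50 windows in all. The core was in 76.0% of those 50 windows and in 43.8% of all 32851 windows of that length. The glucose gene windows were also richer in G and C, with a median of 60.3% against 52.7%. The longer palindrome CACGTG, which contains ACGTG and is the E-box bound by glucose-responsive factors among others, was in 10% of the glucose gene windows and 7.15% of all windows, and in none of the 4 shown. The GC box GGGCGG, searched on both strands, was in 56.0% and 35.7%, with 4 in Pfkp and 1 in Tpi1, and the TATA box TATAAA was in 4.00% and 13.6%. A match is a stretch of letters and does not show binding.

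Glucose uptake and trapping gave small differences, all within the spread between arrays. Slc2a1, the main glucose transporter of endothelium, measured 8.65, 8.60 and 8.31 on diabetic arrays and 8.29, 8.25 and 8.54 on nondiabetic arrays, a difference of 0.16 (SE 0.17, 95% interval -0.23 to 0.55). The ranges overlapped through diabetic replicate 3 and nondiabetic replicate 3. Another Slc2a1 probe set, with means under the limit for dim genes, gave 4.25 in diabetic and 4.33 in nondiabetic cells, a difference of -0.08. Slc2a3, a high-affinity transporter of neurons and blood cells, averaged 6.05 ± 0.27 in diabetic and 5.76 ± 0.32 in nondiabetic cells (SD, n = 3 each), which differ by 0.29 (interval -0.21 to 0.79). Slc2a4, the insulin-regulated transporter of muscle and fat, was dim in both groups, at 4.79 and 4.78. The hexokinases phosphorylate glucose. Hk1, the widely expressed form, averaged 6.63 ± 0.13 and 6.49 ± 0.17, a difference of 0.14 (interval -0.23 to 0.51), and Hk2, the form of insulin-responsive tissue, 6.44 ± 0.33 and 6.31 ± 0.42, a difference of 0.13. Hk3, which is best known from myeloid cells, measured 6.98, 6.88 and 6.78 on diabetic arrays and 6.55, 6.34 and 7.13 on nondiabetic arrays. Nondiabetic replicate 3 was the highest of the 6 for Hk3 and the other nondiabetic arrays the lowest, so that the difference was 0.20 with all arrays (interval -0.30 to 0.71) and 0.43 without that array. The means of the monocyte and neutrophil lists lay 0.38 and 0.19 higher in the same diabetic cells. On nondiabetic replicate 3, where Hk3 was highest, those lists stood at 6.56 and 6.11. The part of myeloid RNA in the Hk3 values was not tested.

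The subunits of phosphofructokinase, the committing step, differed in sign, and none passed the test. Pfkp, the platelet-type subunit, measured 8.09, 7.91 and 7.91 on diabetic arrays and 7.54, 7.40 and 7.87 on nondiabetic arrays. The groups did not overlap, although nondiabetic replicate 3 came close to the diabetic arrays. The difference was 0.36 (SE 0.17, interval -0.04 to 0.76), a 1.29-fold higher mean in diabetic cells, and did not pass the limma test (adjusted p = 0.997). Pfkl, the liver-type subunit, averaged 6.06 ± 0.33 and 6.26 ± 0.27, a difference of -0.21 (interval -0.71 to 0.30). Pfkp is also known from platelets, and the platelet and megakaryocyte list averaged 8.42, 8.36 and 9.31 on diabetic arrays and 8.36, 8.07 and 9.13 on nondiabetic arrays. The groups overlapped in that list, and its part in the Pfkp values was not tested. Pfkm, the muscle-type subunit, was dim, at 4.97 and 4.91. Pfkfb3, which makes the allosteric activator of phosphofructokinase and is known as a driver of endothelial glycolysis, measured 7.12, 6.63 and 6.00 on diabetic arrays and 6.53, 6.70 and 6.01 on nondiabetic arrays. Its groups spanned much the same range, with a difference of 0.17 (interval -0.53 to 0.87) that was -0.10 without diabetic replicate 1. Pfkfb4, its paralog, was dim at 4.35 and 4.34.

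In the middle of glycolysis, Tpi1, which interconverts the trioses, measured 8.32, 7.93 and 7.94 on diabetic arrays and 7.83, 7.84 and 7.39 on nondiabetic arrays. The groups did not overlap, but diabetic replicates 2 and 3 lay close to nondiabetic replicates 1 and 2. The difference was 0.38 (SE 0.19, interval -0.07 to 0.83), and without nondiabetic replicate 3 it was 0.23. Aldoc, an aldolase best known from brain, averaged 5.38 ± 0.17 in diabetic and 5.53 ± 0.12 in nondiabetic cells, a difference of -0.15. Gapdh, the dehydrogenase that opens the energy-yielding steps, was the steadiest of the 28 genes, at 10.87, 10.82 and 10.79 on diabetic and 10.85, 10.82 and 10.72 on nondiabetic arrays. Its difference was 0.03 (interval -0.29 to 0.35), and a second bright probe set gave 10.50 in both groups. Another Gapdh probe set, with values near the limit for dim genes, gave 5.26 in diabetic and 4.94 in nondiabetic cells, a difference of 0.32.

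The lower steps held the largest difference among the 28 genes. Pgam2, the muscle form of phosphoglycerate mutase, measured 5.63, 5.86 and 5.80 on diabetic arrays and 5.17, 4.85 and 5.09 on nondiabetic arrays. The groups did not overlap, and 1 of the nondiabetic arrays lay under the limit for dim genes with the others just above it. The difference was 0.73 (SE 0.16, interval 0.36 to 1.09), a 1.66-fold higher mean, with an unadjusted p = 0.00179 and an adjusted p = 0.997 by limma. The nondiabetic mean of 5.04 was itself under the limit, so Pgam2 was tested only because of its diabetic level, and the size of the fold is uncertain. The skeletal muscle list did not lie higher in diabetic cells. The 13 muscle genes averaged 5.08, 5.01 and 5.13 on diabetic arrays and 5.11, 5.19 and 5.20 on nondiabetic arrays, with summed levels of 8.96 to 9.13 and 9.08 to 9.15. Their leading genes were the troponins Tnnc2, at 6.52 and 6.56, and Tnnt3, at 6.18 and 6.05, and 7 of the 13 had means above the limit for dim genes. The part of muscle RNA in the Pgam2 difference was not tested. Pgam1, the mutase of most tissues, measured 8.39, 8.57 and 8.43 on diabetic arrays and 8.42, 7.88 and 8.43 on nondiabetic arrays. Nondiabetic replicate 2 alone stood low for Pgam1 by this probe set, and the difference of 0.22 (interval -0.22 to 0.66) was 0.04 without it. The other Pgam1 probe set, which was less bright, averaged 5.56 in diabetic and 5.33 in nondiabetic cells, a difference of 0.23. There nondiabetic replicate 1 was the highest array, at 5.77, and nondiabetic replicates 2 and 3 stood low, at 5.09 and 5.14.

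Pgk1, an ATP-producing kinase of glycolysis, averaged 8.96 ± 0.18 in diabetic and 8.74 ± 0.10 in nondiabetic cells (SD, n = 3 each), which differ by 0.23 (interval -0.14 to 0.60), with nondiabetic replicate 1, at 8.85, just above diabetic replicate 3, at 8.82. Eno3, the muscle form of enolase, averaged 6.25 ± 0.32 and 6.26 ± 0.43, and its difference of -0.01 lay between -0.19 and 0.22 with single arrays left out. Eno2, the neuronal enolase, was dim at 4.38 in both groups. Pkm, the pyruvate kinase of most cells, averaged 9.17 ± 0.14 and 9.10 ± 0.25, a difference of 0.07 (interval -0.34 to 0.48). Apart from Pgam2, the lower glycolytic genes therefore had intervals that include 0.

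**Figure D3:**
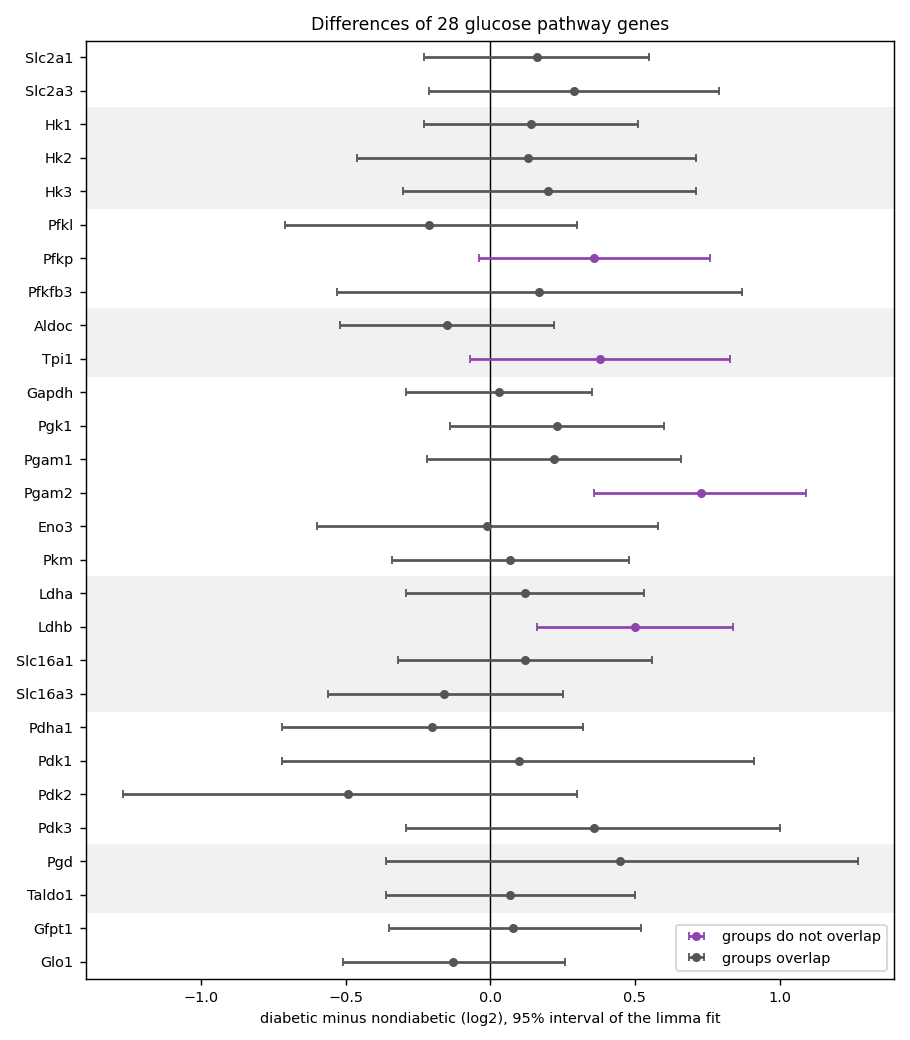
Difference in log2 expression, diabetic minus nondiabetic, for the 28 tested genes in pathway order, with 95% intervals from the limma fit that are not adjusted for the number of genes. Purple points are the 4 genes whose groups did not overlap; the intervals of Pgam2 and Ldhb lie above 0 and those of the other 26 include it.

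Lactate handling held the other gene with an unadjusted p under 0.05. Ldhb, the heart-type lactate dehydrogenase subunit, which favours conversion of lactate to pyruvate, measured 6.01, 5.88 and 6.17 on diabetic arrays and 5.51, 5.49 and 5.55 on nondiabetic arrays. The groups were well apart, and the nondiabetic arrays lay within a narrow range. The difference was 0.50 (SE 0.15, interval 0.16 to 0.84), a 1.42-fold higher mean, with an unadjusted p = 0.00923 and an adjusted p = 0.997 by limma. It ranged from 0.43 to 0.57 with single arrays left out. Ldha, the muscle-type subunit that favours lactate production, averaged 5.92 ± 0.16 in diabetic and 5.80 ± 0.23 in nondiabetic cells, a difference of 0.12 (interval -0.29 to 0.53). The monocarboxylate transporters Slc16a1 and Slc16a3 carry lactate across the membrane. Slc16a1 averaged 5.65 ± 0.30 and 5.53 ± 0.14, a difference of 0.12 that was -0.05 without diabetic replicate 1. Slc16a3, the transporter of strongly glycolytic cells, measured 5.89, 6.11 and 6.28 on diabetic arrays and 6.39, 6.03 and 6.34 on nondiabetic arrays, a difference of -0.16 (interval -0.56 to 0.25). The ranges of both transporters overlapped.

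Several steps are served by alternative forms of an enzyme or carrier, and 7 pairs of these were compared as the ratio of their levels within each array, a comparison chosen after the values were seen. The Pgam2/Pgam1 ratio was higher on all 3 diabetic arrays, by 0.51 on the log2 scale (two-sided exact permutation p = 0.1, the smallest that 3 arrays against 3 can give, and 0.467 adjusted over the 7 pairs). It was the only one of the 7 pairs whose groups did not overlap, and it rests on the nondiabetic Pgam2 level, which lay at the limit for dim genes. The Pfkp/Pfkl ratio differed by 0.57 and the Ldhb/Ldha ratio by 0.38 (exact p = 0.2 each), and 1 array of each group brought the overlap. For Slc2a3/Slc2a1, Hk2/Hk1, Slc16a1/Slc16a3 and Pdk2/Pdk1 the differences were 0.13, -0.01, 0.28 and -0.58, with exact p of 0.7, 1, 0.5 and 0.6. No pair passed, and with this design none could.

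By their brightest probe sets, the tested genes of the pyruvate dehydrogenase step varied more between arrays than between groups. Pdha1, a catalytic subunit of pyruvate dehydrogenase, measured 7.31, 7.17 and 6.66 on diabetic arrays and 7.10, 7.06 and 7.58 on nondiabetic arrays, a difference of -0.20 (interval -0.72 to 0.32). The kinases Pdk1, Pdk2 and Pdk3 switch the complex off. Pdk2 measured 6.14, 5.38 and 5.60 on diabetic arrays and 5.89, 5.74 and 6.95 on nondiabetic arrays. Its difference of -0.49 (SE 0.34, interval -1.27 to 0.30), the lowest of the 28, rested on nondiabetic replicate 3 and was -0.11 without it. Pdk1 measured 6.80, 6.94 and 7.50 on diabetic arrays and 7.29, 7.48 and 6.17 on nondiabetic arrays. There nondiabetic replicate 3 was the lowest, and the difference was 0.10 with it and -0.31 without it. The other Pdk1 probe set, which was less bright, gave 6.56, 6.45 and 6.54 on diabetic and 6.43, 6.34 and 6.09 on nondiabetic arrays, without overlap and with a difference of 0.23. The Pdk1 probe sets thus differed in which arrays were high. Pdk3 averaged 6.85 ± 0.13 and 6.49 ± 0.59, and its difference of 0.36 was 0.03 without nondiabetic replicate 2, which stood alone at 5.84.

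In the pentose phosphate pathway, which makes NADPH and ribose, Pgd, the second of its dehydrogenases, measured 7.21, 6.38 and 6.89 on diabetic arrays and 6.40, 7.04 and 5.67 on nondiabetic arrays. The groups overlapped widely, and the difference of 0.45 (SE 0.35, interval -0.36 to 1.27) was 0.10 without nondiabetic replicate 3. Taldo1, a transaldolase of the non-oxidative branch, measured 7.81, 7.33 and 7.36 on diabetic arrays and 7.26, 7.44 and 7.59 on nondiabetic arrays, a difference of 0.07 with overlapping groups. Gfpt1, which admits fructose phosphate to the hexosamine pathway that supplies sugars for protein glycosylation, measured 7.01, 6.48 and 6.54 on diabetic arrays and 6.74, 6.47 and 6.57 on nondiabetic arrays. Its difference of 0.08 was -0.08 without diabetic replicate 1, which was the highest array. Glo1, which clears the reactive by-product methylglyoxal, measured 6.99, 6.89 and 6.69 on diabetic arrays and 6.80, 7.15 and 7.01 on nondiabetic arrays, a difference of -0.13 (interval -0.51 to 0.26).

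Single arrays stood behind many of these values. Diabetic replicate 1 was the highest array for 11 of the 28 genes, and nondiabetic replicate 2 was the lowest for 12. Relative to each gene's mean over the 6 arrays, the median of the 28 genes was 0.20 on diabetic replicate 1, 0.05 on replicate 2 and -0.01 on replicate 3. It was -0.08, -0.16 and -0.01 on nondiabetic replicates 1, 2 and 3. Over all tested genes the same median was 0.10 on diabetic replicate 1 and between -0.03 and 0.01 on the other 5 arrays. The array that led the glucose genes thus also led the mean of the endothelial markers and the median of all tested genes. Without diabetic replicate 1 the median difference of the glucose genes was 0.11.

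**Figure D4:**
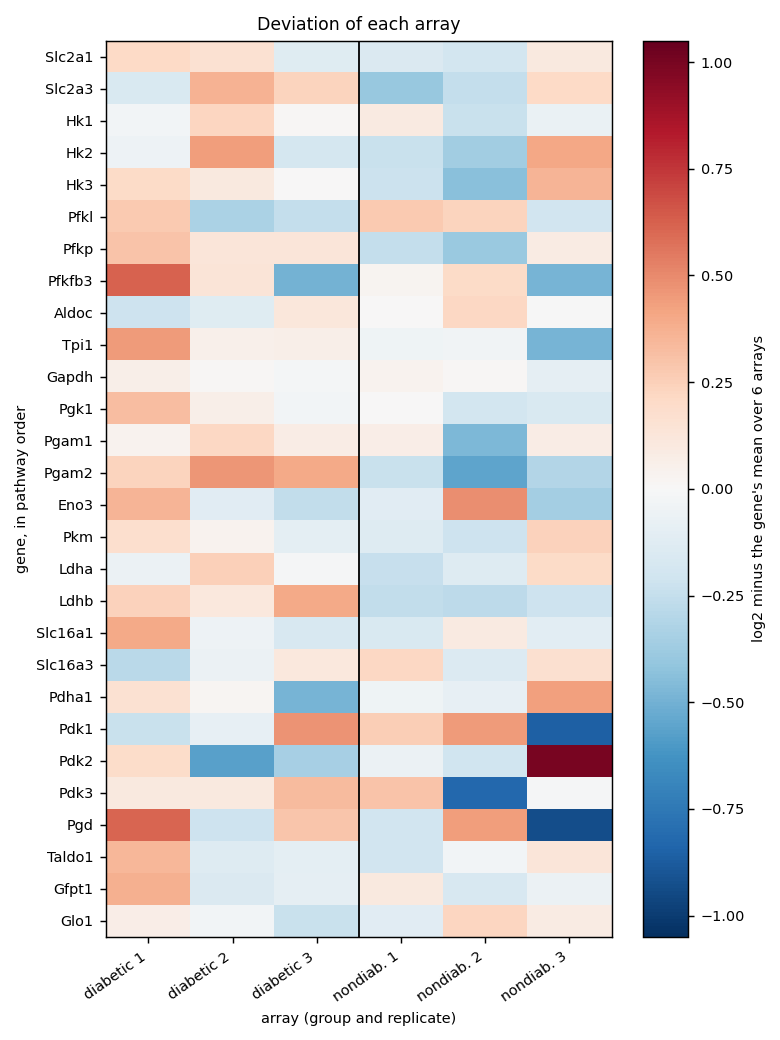
Deviation of each array from the gene's mean over the 6 arrays, in log2 units, for the 28 tested genes in pathway order; red is higher and blue lower, and the black line separates diabetic from nondiabetic arrays. Diabetic replicate 1 had the highest value for 11 genes and nondiabetic replicate 2 the lowest for 12, while Pdk1, Pdk2 and Pgd deviated most on nondiabetic replicate 3.

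With 1 array left out in turn, the differences of Pgam2, Ldhb, Pfkp and Tpi1 ranged from 0.63 to 0.79, 0.43 to 0.57, 0.26 to 0.50 and 0.23 to 0.45. Because the groups of these 4 genes do not overlap, leaving out an array could change the size of their differences but not the sign. Over the 16 alternatives (15 for genes that the stricter filter removed), 19 of the 28 genes kept the sign of their difference and 9 changed it at least once, among them Pfkfb3, Hk2 and Pkm. No glucose gene passed the adjusted limma test under any of them, and the smallest adjusted p was 0.396, for Pgam2.

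**Figure D5:**
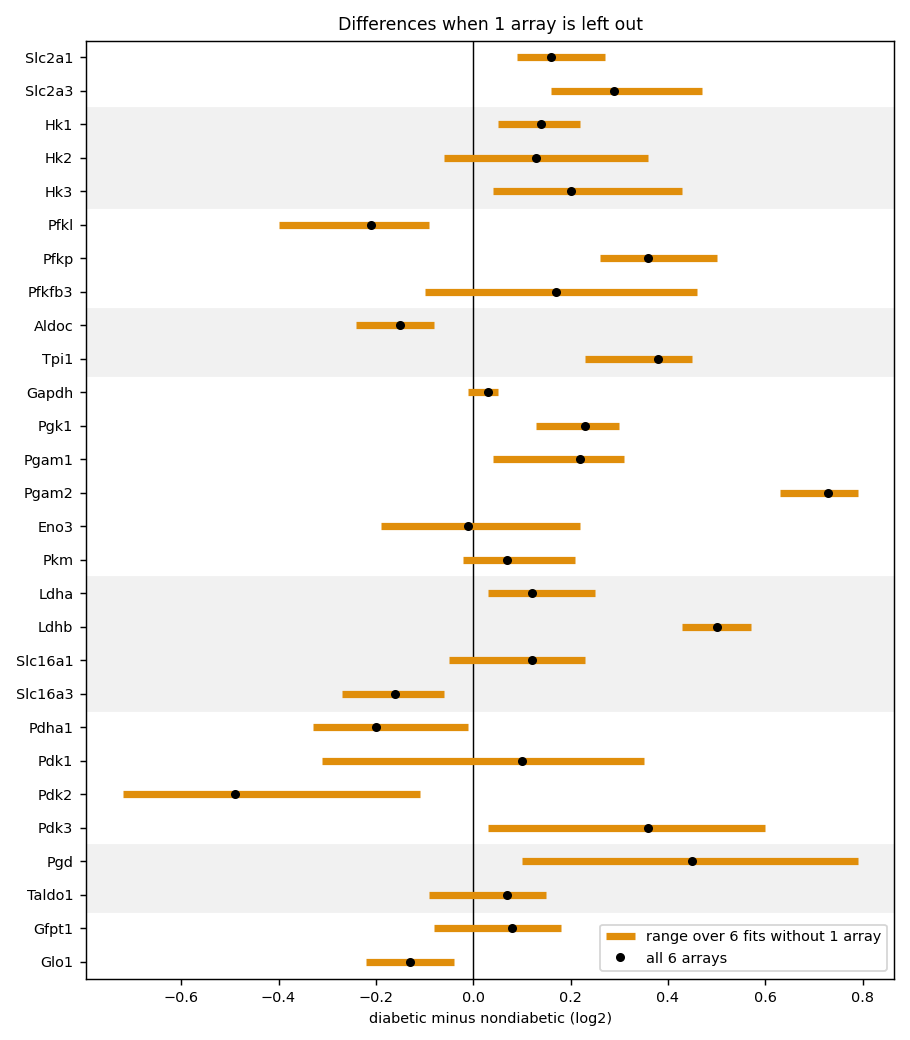
Difference in log2 expression, diabetic minus nondiabetic, with all 6 arrays (black points) and its range over the 6 fits that leave out 1 array (orange bars), for the 28 tested genes. The bars of 9 genes cross 0, among them Eno3, Hk2, Pfkfb3 and Pdk1, and those of the other 19 lie on 1 side; for Pgam2, Ldhb, Pfkp and Tpi1, whose groups do not overlap, the side could not change.

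A wider list of 70 genes of glucose handling, apart from the 38, was read from the same fit. Of these 63 were measured, 17 were dim and 46 were tested. By limma 0 passed the adjusted test, against a background of 0.00751% of all tested genes. Means were higher in diabetic cells for 28 and lower for 18, so 60.9% lay higher, where 54.0% of all tested genes did. The median difference was 0.13, against 0.02 over all tested genes. Akr1b10 and Pdk4 were tested only through their diabetic levels, with nondiabetic means of 4.81 and 4.97. At an unadjusted p under 0.05, 1 of the 46 lay higher, 2.17% against the background of 3.19%, and 0 lay lower, where it is 1.07%. That gene was G6pc3, a ubiquitous glucose phosphatase, at 7.21, 7.17 and 6.82 on diabetic arrays and 6.57, 6.66 and 6.77 on nondiabetic arrays, a difference of 0.40 (SE 0.17). Its groups did not overlap, nor did those of Pdk4, H6pd, Gnpnat1 and Hagh, named after their values were seen, which lay higher, so 10.9% of the 46 lay higher without overlap against the background of 5.28%. Pdk4 is among these 5 only through its diabetic level, since its nondiabetic mean of 4.97 was under the limit for dim genes. The share is a description, and the list was written with earlier results of these data known. Pck1, likewise named after its values were seen, was the 1 gene of the 46 that lay lower without overlap, where the background is 2.67%. Next in order of p among the higher genes were Dlat, a core subunit of pyruvate dehydrogenase, with a difference of 0.47 (SE 0.21), and Pgm3, of the hexosamine pathway, with 0.63 (SE 0.28). The lower genes with the smallest p were Gapdhs, the sperm form of glyceraldehyde phosphate dehydrogenase, with -0.36 (SE 0.18), Pdp1, a phosphatase that switches pyruvate dehydrogenase on, with -0.28 (SE 0.20), and Ogt, the transferase that attaches the hexosamine product to proteins, with -0.16 (SE 0.15).

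Set in their pathways, the 2 lists gave the following differences, none of which passed. In the hexosamine pathway Gfpt1, Gnpnat1, Pgm3 and Uap1, the enzymes from entry to the final activated sugar, differed by 0.08, 0.40, 0.63 and 0.16, and Ogt and Oga, which add and remove that sugar on proteins, by -0.16 and -0.11. Pgm3, with the largest of these, measured 6.79, 5.90 and 6.89 on diabetic arrays and 6.06, 5.97 and 5.65 on nondiabetic arrays, and the groups overlapped. In the pyruvate dehydrogenase complex Pdha1, Pdhb, Dlat, Pdhx and Dld differed by -0.20, 0.04, 0.47, 0.16 and -0.05. The kinase Pdk4, induced by fatty acids and fasting, measured 5.77, 5.23 and 4.99 on diabetic arrays and 4.96, 4.97 and 4.97 on nondiabetic arrays, where it was dim. The activating phosphatases Pdp1 and Pdp2 differed by -0.28 and -0.22. In the pentose phosphate pathway H6pd, Pgls, Pgd, Rpia, Rpe and Taldo1 differed by 0.24, 0.23, 0.45, 0.82, -0.02 and 0.07. The value for Rpia, which makes ribose phosphate, rested on nondiabetic arrays at 6.57, 6.29 and 8.02, while the diabetic arrays read 7.91, 7.81 and 7.63. Txnip, a strongly glucose-induced inhibitor of glucose uptake that was named after its values were seen, averaged 10.43 ± 0.25 in diabetic and 10.46 ± 0.26 in nondiabetic cells, a difference of -0.03 (interval -0.50 to 0.43).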

How the data were processed

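The deposited values are log2 expression from RMA, which the submitters' processing notes name without a version. This method (robust multi-array average) removes background, aligns the arrays' distributions and combines probes into probe sets, and can compress differences of dim genes. The labels' protocols give amplification with the Ovation Pico WTA kit and biotin labelling. The software and any batches were not given in the sources used here. Of 41345 probe sets, 23521 named 1 gene in the platform annotation, 1814 named several and 16010 had no name here. Each of 22180 genes took its brightest single-gene probe set, and those with a mean under the 40th percentile were left out, leaving 13308. The comparison used limma 3.58.1 in R 4.3.3 (lmFit and eBayes, no covariates, 6 arrays), two-sided, with Benjamini-Hochberg adjustment over all tested genes and a threshold of 0.05. Intervals are 95% and unadjusted. The procedure was tested on simulated noise in which 200 of the 13308 genes were changed. It recovered 59% of changes of 1 log2 unit and 99.2% of changes of 2. Smaller changes, such as the differences of the glucose genes, were not simulated. The small number of arrays limits the precision.

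The glucose genes and all lists were chosen with earlier results of these data known. Genes given array by array were those whose groups do not overlap or whose unadjusted p is under 0.05, and the gene of highest mean at each step, with others added where single arrays matter. From the wider list the 3 genes of smallest p per direction were named, and from each marker list the 2 of highest mean. Other genes of these lists, Rpia among them, were added outside that rule with their values known. Alternatives covered the filter, probe set choice, normalization, variance model, array weights, a replicate block, the endothelial marker mean as a covariate and each array left out. Promoter windows came from the RefSeq table of GRCm38.p6.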

Additional observations from a re-analysis of the deposited data

How the results depend on the processing

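Across 16 alternatives, 0 of the glucose genes and 0 of the wider list were called by limma at an adjusted p under 0.05, and the median difference of the glucose genes stayed between 0.06 and 0.20. Over all tested genes the count of calls, 1, became 0 with the dim limit at the 60th percentile, a log2 value of 5.98, and without nondiabetic replicate 3, so that it ranged from 0 to 1 with single arrays left out. The number of glucose genes at an unadjusted p under 0.05, which was 2, was 0 under that stricter filter, where 21 glucose genes were tested and Pgam2 and Ldhb were left out as dim. With 1 array left out it ranged from 2 to 4, and the 4 without nondiabetic replicate 3 were Pgam2, Ldhb, Pfkp and Hk3. Signs changed as follows, and the cause was not tested. With array weights Gfpt1, Pdk1 and Taldo1 differed by -0.04, -0.03 and -0.03, and with the endothelial marker mean as covariate Eno3 differed by 0.06. With single arrays left out the ranges that cross 0 were -0.19 to 0.22 for Eno3, -0.01 to 0.05 for Gapdh, -0.08 to 0.18 for Gfpt1, -0.06 to 0.36 for Hk2, -0.31 to 0.35 for Pdk1, -0.10 to 0.46 for Pfkfb3, -0.02 to 0.21 for Pkm, -0.05 to 0.23 for Slc16a1 and -0.09 to 0.15 for Taldo1. The Hk2/Hk1 ratio differed by 0.15 with array weights, and with single arrays left out the ratios that changed sign ranged from -0.02 to 0.35 for Slc2a3/Slc2a1, -0.18 to 0.22 for Hk2/Hk1 and -1.06 to 0.20 for Pdk2/Pdk1.

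With the replicate number as a block, the counts were 1 gene called, 0 glucose genes called and 2 at an unadjusted p under 0.05, as without it. Arrays of the same number did not deviate together, with correlations of -0.04, -0.06 and 0.02 for numbers 1, 2 and 3. These correlations cannot show whether samples of the same number were collected or processed together. These values do not give signal over background, and differences of genes near 5.07 are the least certain.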
